A study of Mus musculus with 18 samples.

Results

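The G2/M and mitosis genes described here are 46 genes whose products carry a cell from the end of DNA replication through division. They were taken by gene symbol from a deposited table of 15288 genes, and all 46 were found in it. RNA was sequenced in 18 libraries from mouse cells, by their labels pulmonary microvascular endothelial cells, while the series title names pulmonary vascular smooth muscle cells. All cells were transfected with a small interfering RNA (siRNA) in lipid complexes, either against CYP1B1 (siCYP1B1) or scrambled. After 24 h an estrogen, 16aOHE or E2 at 1 uM, or vehicle was given for a further 24 h. The 6 groups, of 3 libraries each, were siCYP1B1 with 16aOHE, siCYP1B1 with E2, siCYP1B1 with vehicle, scrambled siRNA with 16aOHE, scrambled siRNA with E2 and scrambled siRNA with vehicle. The labels do not say whether libraries of the same group are separate cultures, so the p-values cover the spread among these libraries, and that spread may be technical.

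Entry into mitosis is driven by cyclin-dependent kinase 1 (CDK1) bound to mitotic cyclins, and the polo-like and Aurora kinases then build the spindle and attach chromosomes to it. The spindle assembly checkpoint holds back anaphase until every chromosome is attached, and kinesins and their partners then separate the chromosomes and split the cell. Most of these genes are transcribed late in the cycle, kept off in resting cells by the DREAM complex and switched on by B-MYB with MuvB and by FOXM1, through a promoter element called the CHR. E2 is the usual short name of estradiol, 16aOHE is a hydroxylated estrogen metabolite, and CYP1B1 is a cytochrome P450 that hydroxylates estradiol.

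Levels are given in CPM, the reads of a gene scaled to a library total of 1000000 reads in genes, and 1 CPM stood for 14.1 to 38.5 reads across the libraries. Differences were tested with limma on log2(CPM + 1), and a gene was called where its p, adjusted by Benjamini-Hochberg over the 11835 genes averaging 1 CPM or more, was under 0.05. All 46 genes passed that filter. Each call was repeated without each library in turn and with 8 other settings, among them an untrended fit, which assumes the same spread at every level, and a fit to the compared groups alone. Lost calls are named for some genes only, so a call given without a loss is not thereby shown to be stable. The siRNA target Cyp1b1 averaged 90.1 ± 1.39, 103 ± 1.95 and 81.5 ± 0.724 CPM with siCYP1B1 in 16aOHE, E2 and vehicle, against 106 ± 1.25, 118 ± 1.06 and 92.2 ± 3.58 CPM with scrambled siRNA (SD, n = 3 each). Over the 3 arms it differed by -0.20 on the log2 scale (SE 0.0199, adjusted p = 5.83e-08). Of the endothelial markers, Pecam1 averaged 0.0482 CPM and Vwf 0.0306 CPM over all libraries, and 10 of 15 listed markers were in the table, 3 of them at 10 CPM or more (Cd34, Flt1 and Esam). The smooth muscle markers Myh11 and Cnn1 averaged 0.0765 and 0.106 CPM, while 3 of 8 were at 10 CPM or more (Acta2, Smtn and Cald1). Of 9 mesothelial and epithelial markers, 5 were at 10 CPM or more, among them Msln (1521 CPM) and Upk3b (825 CPM). In that list 2 were under 1 CPM, Krt8 (0.522 CPM) and Epcam (0.343 CPM). Of 10 fibroblast and pericyte markers, 5 were at 10 CPM or more, among them Col3a1 (2488 CPM) and Col1a1 (1946 CPM). In that list 4 were under 1 CPM (Lum, Cspg4, Rgs5 and Thy1). Pecam1, Vwf, Myh11 and Cnn1 near 0 go against both the labelled cell type and the series title, and no other cell type is named here. In such bulk libraries a smaller share of dividing cells and less RNA per cell cannot be told apart.

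Summed over the 46 genes, the level was higher with siCYP1B1 than with scrambled siRNA in each arm and lower with E2 than with vehicle for each siRNA. The siCYP1B1 libraries summed to 7586, 7458 and 7569 CPM in 16aOHE, 7199, 7189.7 and 7289.9 CPM in E2 and 7728, 7731 and 7787 CPM in vehicle. The scrambled libraries summed to 7268, 7036 and 7049 CPM in 16aOHE, 6811, 6713 and 6781 CPM in E2 and 7235, 7320.5 and 7218 CPM in vehicle. Within each arm the siCYP1B1 and scrambled libraries did not overlap, and within each siRNA the E2 libraries lay below those of 16aOHE and of vehicle. The 46 genes held 0.677% to 0.775% of the reads of a group, so these are shifts within a small share of the RNA.

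**Figure D1:**
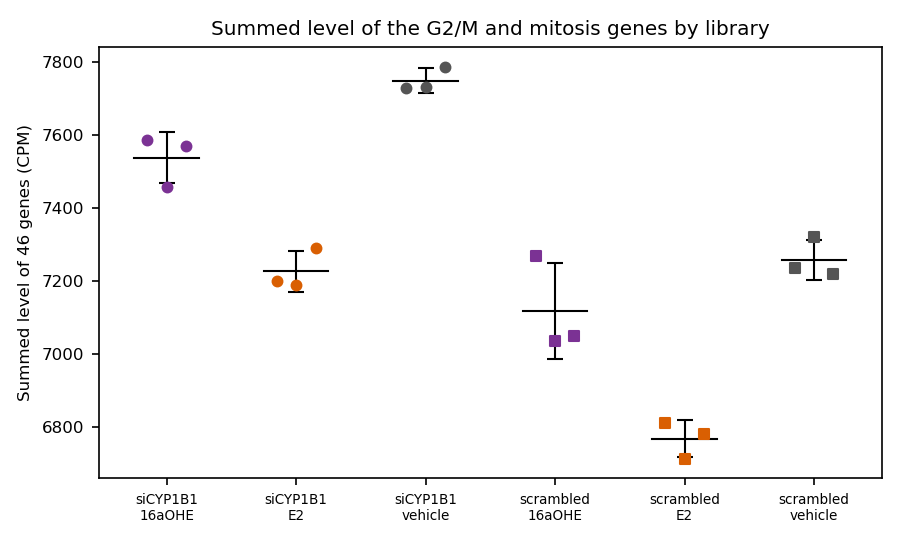
Summed level of the 46 G2/M and mitosis genes in CPM (vertical axis, not starting at 0) in each library of the 6 groups (horizontal axis). Circles are siCYP1B1, squares scrambled siRNA, and bars mean ± SD of 3 libraries: the siCYP1B1 vehicle group is highest, at a mean of 7749 CPM, and the scrambled E2 group lowest, at 6768 CPM.

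With siCYP1B1, genes of every role in mitosis rose in vehicle and in E2, all by small amounts. In vehicle, 18 of the 46 rose and 0 fell, where 11.5% of all tested genes rose and 9.12% fell. In E2, 19 rose and 0 fell, where 11.4% of all tested genes rose and 9.8% fell. In 16aOHE, 14 rose and 0 fell, where 10.4% of all tested genes rose and 9.31% fell. At an unadjusted p under 0.05, 1 gene was lower in vehicle (Mad2l1) and 0 were lower in E2 and in 16aOHE. The median log2 difference of the 46 was 0.11 in vehicle, 0.12 in E2 and 0.09 in 16aOHE, beside 0.03, 0.03 and 0.01 over all tested genes. Averaged over the 3 arms, from the same libraries, 33 rose and 0 fell (0 lower at an unadjusted p under 0.05), where 26.5% of all tested genes rose and 18.2% fell. Called differences within an arm ran from 0.08 to 0.23 on the log2 scale, or 5.96% to 17.7% in CPM. The log2 difference was positive in all 3 arms for 36 genes and negative in all 3 for 1, Anln, the cleavage furrow scaffold anillin.

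The siRNA groups of the 3 arms share no library. 11 genes rose in all 3 arms: Aurka, Bub1b, Ccnb2, Ccnf, Cdc20, Kif20a, Kif23, Plk1, Prc1, Top2a and Ube2c. 5 rose in 2 arms (Aurkb, Birc5, Bub1, Smc4 and Tpx2) and 8 in 1 arm. The other 22 were not called in any single arm. How many of all tested genes shared calls or signs over the arms was not counted. This sharing is thus not shown to be particular to the G2/M and mitosis genes.

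**Figure D2:**
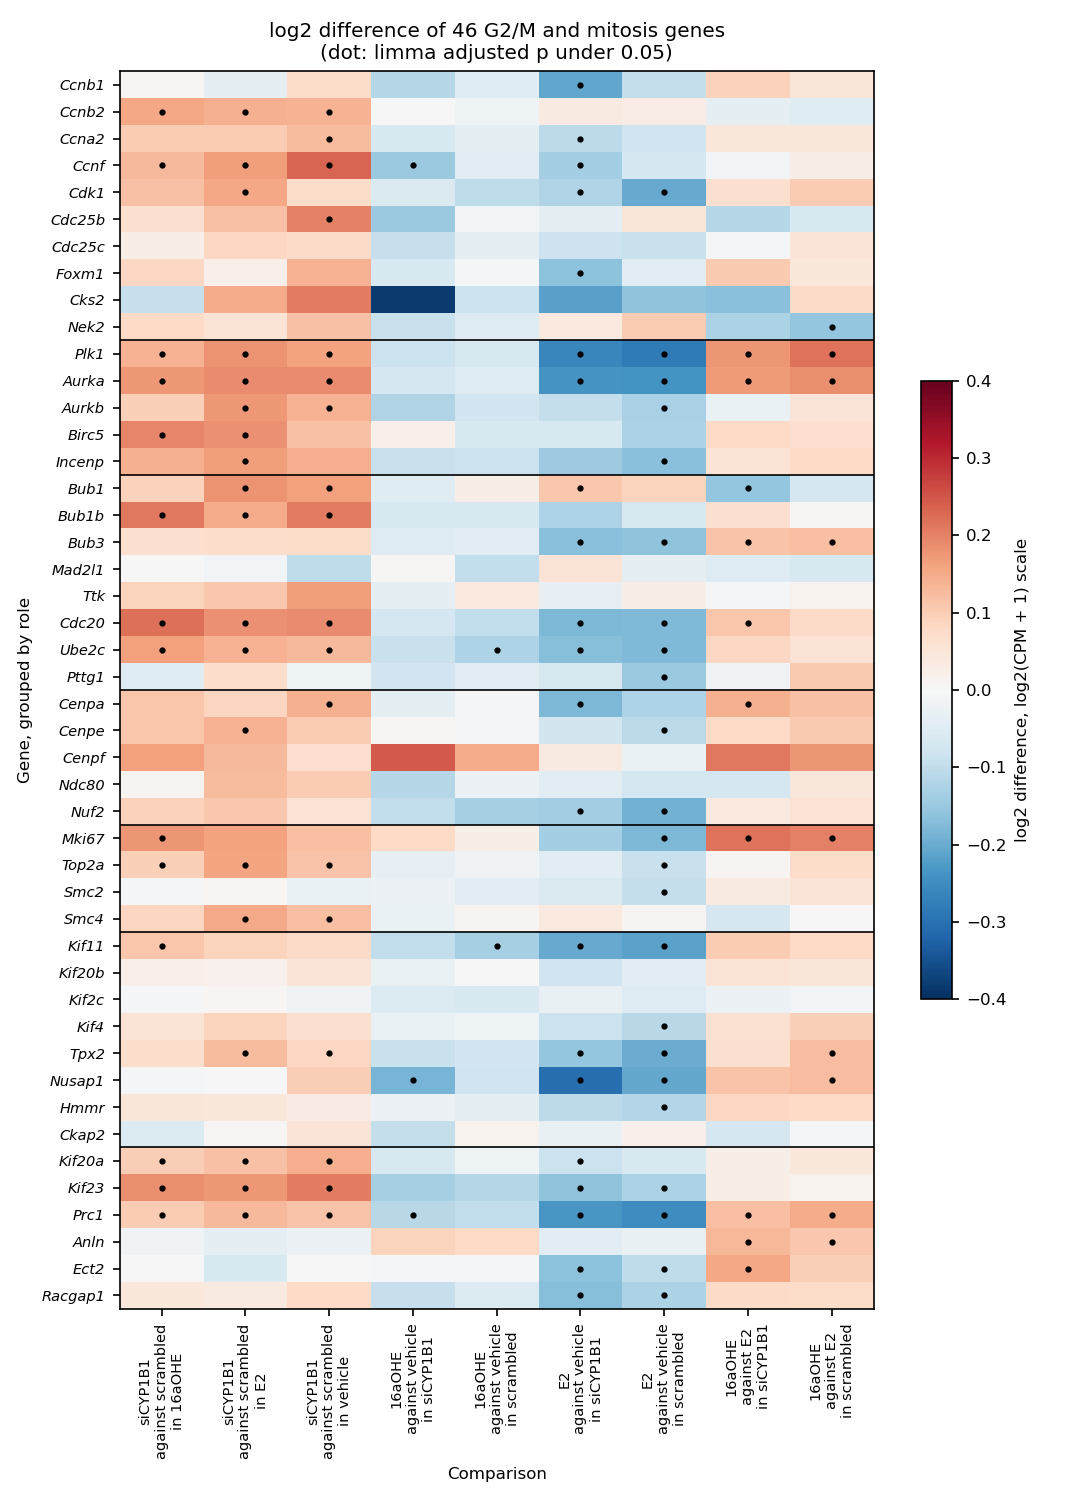
log2 difference of each of the 46 genes (rows, grouped by role with lines between roles) in 9 comparisons (columns), on the log2(CPM + 1) scale from blue (lower) to red (higher), with a dot where limma called the gene. The siCYP1B1 columns hold 14, 19 and 18 dots in 16aOHE, E2 and vehicle, all on higher genes, and the E2 against vehicle columns hold 20 dots on lower genes with siCYP1B1 and 23 with scrambled siRNA.

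Among the 10 cyclins, CDK1 partners and regulators, siCYP1B1 raised Ccna2, Ccnb2, Ccnf and Cdc25b in vehicle, Ccnb2, Ccnf and Cdk1 in E2, and Ccnb2 and Ccnf in 16aOHE. Averaged over the arms 7 of the 10 rose, adding Foxm1 and Nek2, while Ccnb1, Cdc25c and Cks2 were not called. Ccnf, on chromosome 17, 24223232 to 24251409 of mm10, encodes cyclin F, which selects proteins for degradation late in the cycle. With siCYP1B1, Ccnf had 102, 93.9 and 98.8 CPM in 16aOHE, 103, 94.3 and 99.6 CPM in E2 and 112, 108 and 106 CPM in vehicle. With scrambled siRNA, Ccnf had 92.9, 90.2 and 86.2 CPM in 16aOHE, 91.6, 85.5 and 87.2 CPM in E2 and 92.7, 92.1 and 92.6 CPM in vehicle. For Ccnf, the siCYP1B1 libraries of each arm all lay above its scrambled libraries. Its log2 difference was 0.23 (SE 0.0427, adjusted p = 0.000538) in vehicle, 0.17 (SE 0.0427, adjusted p = 0.00759) in E2 and 0.13 (SE 0.0427, adjusted p = 0.0378) in 16aOHE. Ccnf lost its E2 call without siCYP1B1 E2 library 1, with an adjusted p of up to 0.0519. Ccnf lost its 16aOHE call without siCYP1B1 16aOHE library 1 or 3 or scrambled 16aOHE library 2 or 3 or with quantile normalization, an untrended fit or the compared groups alone, with an adjusted p of up to 0.162. Cdk1, on chromosome 10, 69336635 to 69352912, encodes the kinase that starts mitosis. With siCYP1B1, Cdk1 had 172, 180.2 and 185 CPM in 16aOHE, 177, 168 and 168 CPM in E2 and 179.5, 189 and 190.0 CPM in vehicle. With scrambled siRNA, Cdk1 had 161, 161 and 172 CPM in 16aOHE, 146, 151 and 164 CPM in E2 and 182, 175 and 174 CPM in vehicle. For Cdk1, the siCYP1B1 libraries all lay above the scrambled ones in E2, and the siRNA groups overlapped in vehicle and 16aOHE. Cdk1 differed by 0.16 (SE 0.0434, adjusted p = 0.0136) in E2 and was not called in vehicle, at 0.07 (95% interval -0.02 to 0.16, adjusted p = 0.249), or in 16aOHE, at 0.12 (95% interval 0.03 to 0.21, adjusted p = 0.06). Cdk1 lost its E2 call without siCYP1B1 E2 library 1 or scrambled E2 library 1, with an adjusted p of up to 0.0803.

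Ccnb1, on chromosome 13, 100778739 to 100786486, encodes cyclin B1, the main partner of CDK1 at mitotic entry. With siCYP1B1, Ccnb1 had 41.5, 40.5 and 42.9 CPM in 16aOHE, 38.0, 39.4 and 39.5 CPM in E2 and 45.2, 45.3 and 45.0 CPM in vehicle. With scrambled siRNA, Ccnb1 had 40.5, 42.2 and 41.6 CPM in 16aOHE, 39.2, 38.6 and 42.4 CPM in E2 and 43.6, 43.9 and 41.2 CPM in vehicle. For Ccnb1, the siCYP1B1 libraries all lay above the scrambled ones in vehicle, and the siRNA groups overlapped in E2 and 16aOHE. Its log2 differences were 0.07 (95% interval -0.02 to 0.17, adjusted p = 0.293) in vehicle, -0.04 (95% interval -0.14 to 0.06, adjusted p = 0.61) in E2 and 0.01 (95% interval -0.09 to 0.10, adjusted p = 0.94) in 16aOHE, none of them called. Foxm1, on chromosome 6, 128362994 to 128375886, encodes a transcription factor of late cell cycle genes. With siCYP1B1, Foxm1 had 178, 159 and 159 CPM in 16aOHE, 164, 150.1 and 147 CPM in E2 and 178, 166 and 171 CPM in vehicle. With scrambled siRNA, Foxm1 had 162, 148 and 157 CPM in 16aOHE, 159.6, 149 and 145 CPM in E2 and 157, 158 and 152 CPM in vehicle. For Foxm1, the siCYP1B1 libraries all lay above the scrambled ones in vehicle, and the siRNA groups overlapped in E2 and 16aOHE. In no single arm was Foxm1 called, at 0.14 (95% interval 0.03 to 0.24, adjusted p = 0.0538) in vehicle, 0.02 (95% interval -0.08 to 0.13, adjusted p = 0.802) in E2 and 0.08 (95% interval -0.02 to 0.19, adjusted p = 0.268) in 16aOHE, and averaged over the arms it differed by 0.08 (SE 0.0291, adjusted p = 0.027). Foxm1 lost its averaged call without siCYP1B1 16aOHE library 1, siCYP1B1 E2 library 1, siCYP1B1 vehicle library 1, scrambled 16aOHE library 2, scrambled E2 library 3 or scrambled vehicle library 3 or with median-of-ratios scaling, quantile normalization or an untrended fit, with an adjusted p of up to 0.0683. Ccnb2, encoding cyclin B2, was called in every arm at 0.14, 0.14 and 0.16 in vehicle, E2 and 16aOHE. Cdc25b, a phosphatase that activates CDK1, was called in vehicle at 0.20 (SE 0.0517, adjusted p = 0.00842), and Ccna2, encoding cyclin A2, at 0.13 (SE 0.0378, adjusted p = 0.0227). Ccna2 lost its vehicle call without siCYP1B1 vehicle library 1 or 2 or scrambled vehicle library 2 or with median-of-ratios scaling, with an adjusted p of up to 0.109. Cdc25c, encoding a phosphatase of the same family as Cdc25b, and Cks2, encoding a small CDK-binding protein, were not called in any arm, and the interval of Cks2 was the widest of the 46.

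Of the 5 kinases and chromosomal passenger genes, 3 rose in vehicle, all 5 in E2 and 3 in 16aOHE, and all 5 averaged over the arms. Plk1, on chromosome 7, 122159435 to 122169884, encodes polo-like kinase 1, which acts at centrosomes, kinetochores and the midbody. With siCYP1B1, Plk1 had 195, 169 and 187 CPM in 16aOHE, 164, 158 and 164 CPM in E2 and 196, 197 and 190.3 CPM in vehicle. With scrambled siRNA, Plk1 had 173, 159 and 167 CPM in 16aOHE, 151, 136 and 141 CPM in E2 and 174, 174 and 173 CPM in vehicle. For Plk1, the siCYP1B1 libraries all lay above the scrambled ones in vehicle and E2, and the siRNA groups overlapped in 16aOHE. Plk1 was called in all 3 arms, at 0.16 (SE 0.0464, adjusted p = 0.0176) in vehicle, 0.18 (SE 0.0464, adjusted p = 0.00803) in E2 and 0.14 (SE 0.0464, adjusted p = 0.0386) in 16aOHE. Plk1 lost its vehicle call without siCYP1B1 vehicle library 1 or 2 or scrambled vehicle library 3, with an adjusted p of up to 0.0607. Plk1 lost its 16aOHE call without siCYP1B1 16aOHE library 1 or 3 or scrambled 16aOHE library 2 or 3 or with no filter, quantile normalization, an untrended fit or the compared groups alone, with an adjusted p of up to 0.175. Aurka, on chromosome 2, 172356190 to 172370570, encodes Aurora kinase A of the spindle poles. With siCYP1B1, Aurka had 111, 116 and 117 CPM in 16aOHE, 101, 98.8 and 106 CPM in E2 and 122, 118 and 121 CPM in vehicle. With scrambled siRNA, Aurka had 99.6, 101 and 103 CPM in 16aOHE, 92.7, 84.4 and 90.2 CPM in E2 and 106, 105 and 105 CPM in vehicle. For Aurka, the siCYP1B1 libraries of each arm all lay above its scrambled libraries. Its log2 difference was 0.19 (SE 0.0387, adjusted p = 0.00148) in vehicle, 0.19 (SE 0.0387, adjusted p = 0.0013) in E2 and 0.17 (SE 0.0387, adjusted p = 0.00304) in 16aOHE.

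Aurora kinase B, survivin and INCENP form the chromosomal passenger complex, which corrects faulty attachments and then guides cytokinesis. Aurkb lies on chromosome 11, 69045637 to 69051664 and Birc5, the survivin gene, on chromosome 11, 117849237 to 117855743. With siCYP1B1, Aurkb had 78.1, 71.0 and 78.1 CPM in 16aOHE, 78.4, 75.1 and 77.4 CPM in E2 and 82.9, 83.4 and 80.8 CPM in vehicle. With scrambled siRNA, Aurkb had 68.2, 68.5 and 75.6 CPM in 16aOHE, 67.2, 68.5 and 68.7 CPM in E2 and 76.0, 71.0 and 77.1 CPM in vehicle. For Aurkb, the siCYP1B1 libraries all lay above the scrambled ones in vehicle and E2, and the siRNA groups overlapped in 16aOHE. Aurkb was called in vehicle, at 0.14 (SE 0.0471, adjusted p = 0.0387), and in E2, at 0.17 (SE 0.0471, adjusted p = 0.0112), but not in 16aOHE, at 0.10 (95% interval -0.0012 to 0.19, adjusted p = 0.162). Aurkb lost its vehicle call without any siCYP1B1 vehicle library or scrambled vehicle library 1 or 2 or with median-of-ratios scaling, quantile normalization or an untrended fit, with an adjusted p of up to 0.189. With siCYP1B1, Birc5 had 105, 96.4 and 103 CPM in 16aOHE, 98.2, 94.3 and 94.8 CPM in E2 and 98.6, 96.2 and 105 CPM in vehicle. With scrambled siRNA, Birc5 had 93.8, 84.5 and 87.0 CPM in 16aOHE, 82.8, 81.2 and 88.9 CPM in E2 and 95.3, 92.7 and 88.5 CPM in vehicle. For Birc5, the siCYP1B1 libraries of each arm all lay above its scrambled libraries. Birc5 was called in E2, at 0.18 (SE 0.0485, adjusted p = 0.00992), and in 16aOHE, at 0.20 (SE 0.0485, adjusted p = 0.00701), but not in vehicle, at 0.12 (95% interval 0.02 to 0.22, adjusted p = 0.0971). Birc5 lost its E2 call without scrambled E2 library 2, with an adjusted p of up to 0.0523. Incenp was called in E2, at 0.17 (SE 0.0546, adjusted p = 0.0318). Incenp lost its E2 call without siCYP1B1 E2 library 1 or 3 or scrambled E2 library 2 or 3 or with median-of-ratios scaling or an untrended fit, with an adjusted p of up to 0.166.

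**Figure D3:**
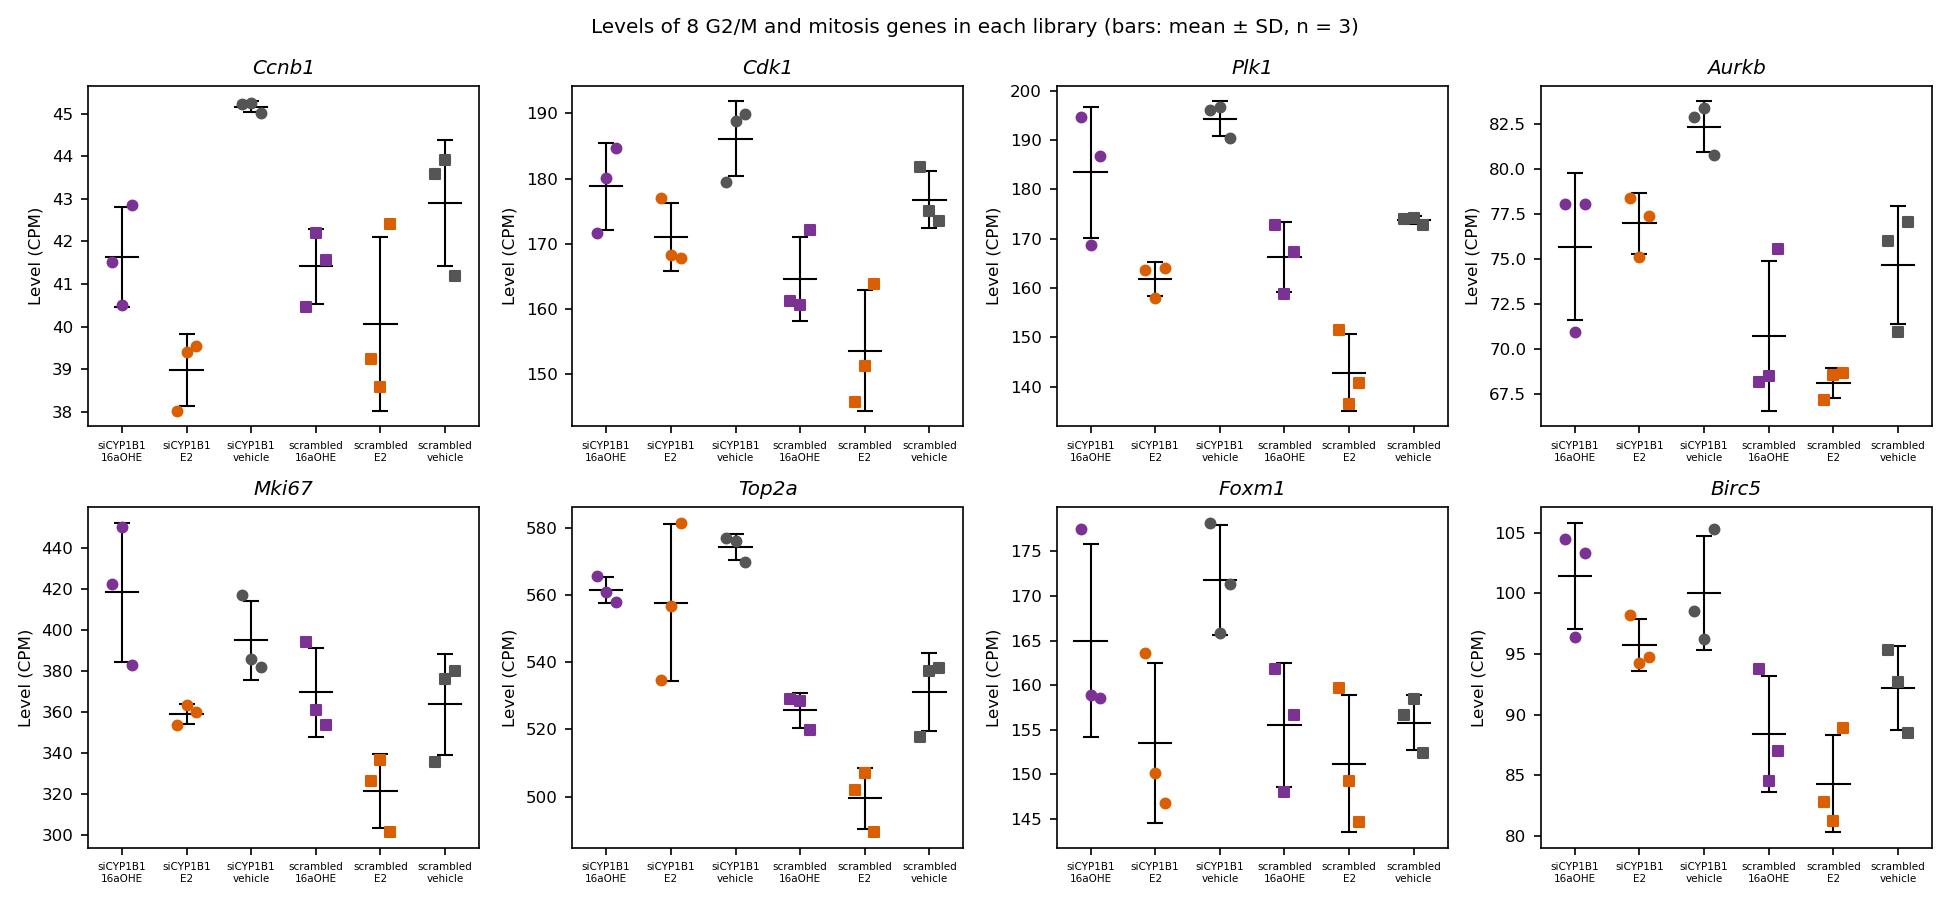
Levels in CPM (vertical axes, not starting at 0) of Ccnb1, Cdk1, Plk1, Aurkb, Mki67, Top2a, Foxm1 and Birc5 in each library (points) of the 6 groups (horizontal axes), with mean ± SD bars, n = 3. Circles are siCYP1B1 and squares scrambled siRNA, and purple, orange and grey mark 16aOHE, E2 and vehicle: for each siRNA Plk1 is lowest in E2, while the siCYP1B1 and scrambled points of Ccnb1 overlap in E2 and in 16aOHE.

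Among the 8 checkpoint and anaphase genes, Bub1b, Cdc20 and Ube2c rose in every arm, Bub1 rose in vehicle and E2, and Bub3, Mad2l1, Ttk and Pttg1 were not called in any single arm. Averaged over the arms Bub3 and Ttk were also called, so that 6 of 8 rose, and Mad2l1 and Pttg1 were not. Cdc20, on chromosome 4, 118432901 to 118437343, encodes the activator of the anaphase-promoting complex that the checkpoint restrains. With siCYP1B1, Cdc20 had 261, 262 and 264 CPM in 16aOHE, 246, 235 and 247 CPM in E2 and 262, 277 and 287 CPM in vehicle. With scrambled siRNA, Cdc20 had 214, 232 and 230.0 CPM in 16aOHE, 218, 212 and 210.0 CPM in E2 and 245, 242 and 236 CPM in vehicle. For Cdc20, the siCYP1B1 libraries of each arm all lay above its scrambled libraries. Cdc20 was called at 0.19 (SE 0.0372, adjusted p = 0.00101) in vehicle, 0.18 (SE 0.0372, adjusted p = 0.00125) in E2 and 0.22 (SE 0.0372, adjusted p = 0.000279) in 16aOHE, or 14.1%, 13.7% and 16.4% above scrambled in CPM. Bub1b, on chromosome 2, 118598211 to 118641592, encodes the checkpoint protein BubR1. With siCYP1B1, Bub1b had 125, 118 and 132 CPM in 16aOHE, 118, 117 and 123 CPM in E2 and 126, 131 and 133 CPM in vehicle. With scrambled siRNA, Bub1b had 110.3, 110.0 and 103 CPM in 16aOHE, 109, 101 and 113 CPM in E2 and 115, 112 and 110.0 CPM in vehicle. For Bub1b, the siCYP1B1 libraries of each arm all lay above its scrambled libraries. The log2 difference of Bub1b was 0.21 (SE 0.0473, adjusted p = 0.00339) in vehicle, 0.15 (SE 0.0473, adjusted p = 0.028) in E2 and 0.21 (SE 0.0473, adjusted p = 0.00344) in 16aOHE. Bub1b lost its E2 call without siCYP1B1 E2 library 1 or 3 or scrambled E2 library 2 or with median-of-ratios scaling or an untrended fit, with an adjusted p of up to 0.164.

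Bub1, on chromosome 2, 127800200 to 127831859, encodes a kinase that recruits checkpoint proteins to kinetochores. With siCYP1B1, Bub1 had 75.5, 77.2 and 78.2 CPM in 16aOHE, 86.5, 85.8 and 85.3 CPM in E2 and 78.1, 80.5 and 80.1 CPM in vehicle. With scrambled siRNA, Bub1 had 74.7, 72.5 and 69.4 CPM in 16aOHE, 73.6, 76.8 and 76.5 CPM in E2 and 70.9, 72.1 and 69.9 CPM in vehicle. For Bub1, the siCYP1B1 libraries of each arm all lay above its scrambled libraries. Bub1 was called at 0.16 (SE 0.0370, adjusted p = 0.00346) in vehicle and 0.18 (SE 0.0370, adjusted p = 0.0014) in E2, and not in 16aOHE, at 0.09 (95% interval 0.01 to 0.17, adjusted p = 0.0886). Ube2c, on chromosome 2, 164769929 to 164772902, encodes the ubiquitin-conjugating enzyme that works with the anaphase-promoting complex. With siCYP1B1, Ube2c had 182, 176 and 176 CPM in 16aOHE, 174, 166 and 165 CPM in E2 and 188, 188 and 192 CPM in vehicle. With scrambled siRNA, Ube2c had 161, 155 and 159.6 CPM in 16aOHE, 157, 149.8 and 151 CPM in E2 and 180.2, 168 and 170.4 CPM in vehicle. For Ube2c, the siCYP1B1 libraries of each arm all lay above its scrambled libraries. Its log2 difference was 0.13 (SE 0.0343, adjusted p = 0.00952) in vehicle, 0.14 (SE 0.0343, adjusted p = 0.00628) in E2 and 0.17 (SE 0.0343, adjusted p = 0.00182) in 16aOHE. Ube2c lost its vehicle call without scrambled vehicle library 2, with an adjusted p of up to 0.0572. Exons of Tnnc2 overlap 22.8% of the exonic length of Ube2c, and the sources used here give no strand for the counting, so its level is uncertain. Mad2l1, encoding the checkpoint protein MAD2, was -0.10 (95% interval -0.19 to -0.01, adjusted p = 0.12) in vehicle and was not called.

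Few of the 5 kinetochore genes were called in single arms. Cenpa, encoding the centromeric histone, was called in vehicle at 0.14 (SE 0.0478, adjusted p = 0.0386). Cenpe, encoding a kinetochore motor, was called in E2 at 0.14 (SE 0.0395, adjusted p = 0.0163). In 16aOHE 0 were called (4 higher at an unadjusted p under 0.05: Cenpa, Cenpe, Cenpf and Nuf2). The median log2 difference of the 5 was 0.101 in vehicle, 0.125 in E2 and 0.111 in 16aOHE. All 5 were positive in each arm. Cenpa lost its vehicle call without siCYP1B1 vehicle library 2 or 3 or scrambled vehicle library 2 or 3 or with median-of-ratios scaling, quantile normalization or an untrended fit, with an adjusted p of up to 0.175. Cenpe lost its E2 call without siCYP1B1 E2 library 3 or scrambled E2 library 3 or with median-of-ratios scaling, with an adjusted p of up to 0.106. Averaged over the arms all 5 rose, with Ndc80 and Nuf2, of the complex that grips microtubules, at 0.08 (SE 0.0276, adjusted p = 0.0244) and 0.09 (SE 0.0244, adjusted p = 0.00682). Cenpf, a kinetochore protein of late G2, was at 0.12 (SE 0.0429, adjusted p = 0.027). Ndc80 lost its averaged call without siCYP1B1 vehicle library 3 or scrambled E2 library 1 or with median-of-ratios scaling or quantile normalization, with an adjusted p of up to 0.125. Cenpf lost its averaged call without siCYP1B1 16aOHE library 2, siCYP1B1 E2 library 2 or 3 or scrambled 16aOHE library 3 or with median-of-ratios scaling or an untrended fit, with an adjusted p of up to 0.0733.

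Of the 8 spindle proteins and motors, Tpx2, which activates Aurora A on the spindle, was called in vehicle at 0.08 (SE 0.0290, adjusted p = 0.0466) and in E2 at 0.13 (SE 0.0290, adjusted p = 0.00331), and Kif11, whose motor pushes the spindle poles apart, in 16aOHE. Tpx2 lost its vehicle call without any siCYP1B1 E2 library, any siCYP1B1 vehicle library, any scrambled 16aOHE library, scrambled E2 library 1 or any scrambled vehicle library or with median-of-ratios scaling, quantile normalization, an untrended fit or the compared groups alone, with an adjusted p of up to 0.174. Kif20b, Kif2c, Nusap1, Hmmr and Ckap2 were not called in any arm or averaged over the arms, at averaged log2 differences of 0.03, -0.0035, 0.03, 0.04 and 0.00. Kif4, a motor that binds chromosome arms, was called in the average alone, at 0.07 (SE 0.0239, adjusted p = 0.0243). Kif4 lost its averaged call without siCYP1B1 16aOHE library 3, siCYP1B1 vehicle library 3 or scrambled 16aOHE library 3 or with median-of-ratios scaling or quantile normalization, with an adjusted p of up to 0.099.

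Kif11 lies on chromosome 19, 37376403 to 37421859 and Nusap1, a protein that bundles spindle microtubules, on chromosome 2, 119618298 to 119650160. With siCYP1B1, Kif11 had 167, 163 and 163 CPM in 16aOHE, 149, 154 and 156 CPM in E2 and 174, 176 and 178 CPM in vehicle. With scrambled siRNA, Kif11 had 160.0, 147 and 149.6 CPM in 16aOHE, 139, 146 and 147 CPM in E2 and 165, 167 and 169 CPM in vehicle. For Kif11, the siCYP1B1 libraries of each arm all lay above its scrambled libraries. Kif11 differed by 0.11 (SE 0.0354, adjusted p = 0.0332) in 16aOHE, and was not called in vehicle, at 0.08 (95% interval 0.00 to 0.15, adjusted p = 0.139), or in E2, at 0.09 (95% interval 0.02 to 0.16, adjusted p = 0.0791). Kif11 lost its 16aOHE call without any siCYP1B1 16aOHE library or scrambled 16aOHE library 2 or 3 or with median-of-ratios scaling, quantile normalization, an untrended fit or the compared groups alone, with an adjusted p of up to 0.159. With siCYP1B1, Nusap1 had 67.8, 64.4 and 66.7 CPM in 16aOHE, 59.4, 62.3 and 62.0 CPM in E2 and 75.1, 77.1 and 74.8 CPM in vehicle. With scrambled siRNA, Nusap1 had 68.6, 64.7 and 66.9 CPM in 16aOHE, 60.9, 60.7 and 62.1 CPM in E2 and 72.4, 68.1 and 71.5 CPM in vehicle. For Nusap1, the siCYP1B1 libraries all lay above the scrambled ones in vehicle, and the siRNA groups overlapped in E2 and 16aOHE. Nusap1 was not called in any arm, at 0.10 (95% interval 0.02 to 0.18, adjusted p = 0.0872) in vehicle, 0.00 (95% interval -0.08 to 0.08, adjusted p = 0.999) in E2 and -0.01 (95% interval -0.09 to 0.07, adjusted p = 0.912) in 16aOHE.

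Of the 6 cytokinesis genes, the same 3, Kif20a, Kif23 and Prc1, rose in every arm. Kif20a and Kif23 encode motors of the central spindle, and Prc1 a protein that bundles its microtubules. Kif23 was called at 0.21 (SE 0.0422, adjusted p = 0.00153) in vehicle, 0.17 (SE 0.0422, adjusted p = 0.00579) in E2 and 0.18 (SE 0.0422, adjusted p = 0.0039) in 16aOHE, and Kif20a at 0.15, 0.12 and 0.10. Exons of Cdc23 overlap 29.3% of the exonic length of Kif20a. Prc1 lies on chromosome 7, 80294451 to 80316259. With siCYP1B1, Prc1 had 199, 192 and 205 CPM in 16aOHE, 179, 183 and 185 CPM in E2 and 215, 214 and 215 CPM in vehicle. With scrambled siRNA, Prc1 had 188, 182 and 185 CPM in 16aOHE, 168, 165 and 167 CPM in E2 and 197, 204 and 193 CPM in vehicle. For Prc1, the siCYP1B1 libraries of each arm all lay above its scrambled libraries. Its log2 difference was 0.11 (SE 0.0315, adjusted p = 0.0129) in vehicle, 0.13 (SE 0.0315, adjusted p = 0.00577) in E2 and 0.10 (SE 0.0315, adjusted p = 0.0272) in 16aOHE. Prc1 lost its vehicle call without scrambled vehicle library 3 or with median-of-ratios scaling, with an adjusted p of up to 0.0692. Prc1 lost its 16aOHE call without siCYP1B1 16aOHE library 1 or 3 or scrambled 16aOHE library 2 or 3 or with the compared groups alone, with an adjusted p of up to 0.133. Racgap1, the partner of Kif23, was called in the average alone, at 0.05 (SE 0.0189, adjusted p = 0.0266), and Anln and Ect2, an activator of the contractile ring, were called in no arm and not in the average. Racgap1 lost its averaged call without siCYP1B1 16aOHE library 3, siCYP1B1 E2 library 3, siCYP1B1 vehicle library 3, scrambled 16aOHE library 3 or scrambled E2 library 2 or with median-of-ratios scaling or quantile normalization, with an adjusted p of up to 0.155.

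Of the 4 chromosome genes, Top2a rose in every arm, Smc4, a condensin subunit, in vehicle and E2, and Mki67 in 16aOHE, while Smc2, its condensin partner, was not called. Top2a, on chromosome 11, 98992947 to 99024189, encodes the topoisomerase that disentangles sister chromatids. With siCYP1B1, Top2a had 566, 561 and 558 CPM in 16aOHE, 535, 557 and 582 CPM in E2 and 577, 576 and 570.0 CPM in vehicle. With scrambled siRNA, Top2a had 529, 528 and 519.7 CPM in 16aOHE, 502, 507 and 489 CPM in E2 and 518, 537 and 538 CPM in vehicle. For Top2a, the siCYP1B1 libraries of each arm all lay above its scrambled libraries. The log2 difference of Top2a was 0.11 (SE 0.0311, adjusted p = 0.0132) in vehicle, 0.16 (SE 0.0311, adjusted p = 0.000979) in E2 and 0.10 (SE 0.0311, adjusted p = 0.0353) in 16aOHE. Top2a lost its vehicle call without scrambled vehicle library 1 or with median-of-ratios scaling, with an adjusted p of up to 0.0815. Top2a lost its 16aOHE call without any siCYP1B1 16aOHE library or any scrambled 16aOHE library or with median-of-ratios scaling, an untrended fit or the compared groups alone, with an adjusted p of up to 0.103. Mki67, on chromosome 7, 135689788 to 135716379, encodes the proliferation marker Ki-67, which coats mitotic chromosomes. With siCYP1B1, Mki67 had 422, 450.3 and 383 CPM in 16aOHE, 354, 363 and 359.9 CPM in E2 and 417, 386 and 382 CPM in vehicle. With scrambled siRNA, Mki67 had 394, 361 and 354 CPM in 16aOHE, 326, 337 and 301 CPM in E2 and 335, 376 and 379.9 CPM in vehicle. For Mki67, the siCYP1B1 libraries all lay above the scrambled ones in vehicle and E2, and the siRNA groups overlapped in 16aOHE. Mki67 was called in 16aOHE, at 0.18 (SE 0.0577, adjusted p = 0.0351), and not in vehicle, at 0.12 (95% interval -0.00069 to 0.24, adjusted p = 0.155), or in E2, at 0.16 (95% interval 0.04 to 0.28, adjusted p = 0.0515). Mki67 lost its 16aOHE call without siCYP1B1 16aOHE library 1 or 2 or scrambled 16aOHE library 2 or 3 or with no filter, median-of-ratios scaling, an untrended fit or the compared groups alone, with an adjusted p of up to 0.181.

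Cell type markers moved with the siRNA as well. Among the tested markers, 3 of 6 endothelial genes fell in each arm, as did 5, 4 and 5 of 7 mesothelial and epithelial genes and 3, 4 and 3 of 6 fibroblast and pericyte genes in vehicle, E2 and 16aOHE, and 2, 1 and 2 of 4 smooth muscle genes. Summed endothelial markers ran from 195 to 198 CPM with siCYP1B1 in vehicle, against 267 to 306 CPM with scrambled siRNA, and fibroblast and pericyte markers from 5233 to 5531 CPM against 6563 to 6922 CPM. In the same order, mesothelial and epithelial markers ran from 2948 to 3103 CPM against 3819 to 3894 CPM and smooth muscle markers from 1027 to 1063 CPM against 1097 to 1116 CPM. In E2 the sums ran from 141 to 147 CPM against 219 to 227 CPM for endothelial, 3456 to 3576 CPM against 4272 to 4785 CPM for fibroblast and pericyte, 2411 to 2482 CPM against 2937 to 3117 CPM for mesothelial and epithelial, 1062 to 1073 CPM against 1095 to 1121 CPM for smooth muscle markers. In 16aOHE they ran from 167 to 171 CPM against 242 to 247 CPM for endothelial, 4602 to 4799 CPM against 5800.3 to 6189.6 CPM for fibroblast and pericyte, 2767 to 2912 CPM against 3441 to 3677 CPM for mesothelial and epithelial, 1028 to 1059.6 CPM against 1083 to 1111 CPM for smooth muscle markers. Of 2 tested leukocyte markers 0 were called. The part of these markers in the rise of the mitotic genes was not tested. The count of 18 in vehicle was 11 after median-of-ratios scaling. The count of 14 in 16aOHE was 7 without scrambled 16aOHE library 2, 8 without siCYP1B1 16aOHE library 1 and 9 without siCYP1B1 16aOHE library 3 or scrambled 16aOHE library 3, and 1 gene was called lower in vehicle without scrambled vehicle library 3.

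The promoters of these genes are shown because many mitotic genes share the CHR element. RefSeq (GRCm38.p6) promoters of 300 bases, 250 before the start base and 50 from it onward, were at hand for 38 of the 46 genes. The CHR was searched on both strands as TTTGAA or TTCGAA, and the CCAAT box, bound by NF-Y, as CCAAT, which reads ATTGG on the other strand. Capitals mark these motifs, which do not overlap each other here. Cdk1, Plk1, Mki67 and Top2a are shown, at chr10:69352863-69353162, minus strand, chr7:122159185-122159484, plus strand, chr7:135716330-135716629, minus strand, and chr11:99024140-99024439, minus strand, each read 5′ to 3′ on the strand of its gene.
Cdk1: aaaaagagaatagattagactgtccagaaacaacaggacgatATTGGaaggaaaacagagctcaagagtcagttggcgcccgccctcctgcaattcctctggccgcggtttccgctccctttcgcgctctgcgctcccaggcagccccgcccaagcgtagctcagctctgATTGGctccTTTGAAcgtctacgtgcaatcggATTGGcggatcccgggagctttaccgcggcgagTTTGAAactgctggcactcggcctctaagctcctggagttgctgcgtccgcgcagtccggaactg
Plk1: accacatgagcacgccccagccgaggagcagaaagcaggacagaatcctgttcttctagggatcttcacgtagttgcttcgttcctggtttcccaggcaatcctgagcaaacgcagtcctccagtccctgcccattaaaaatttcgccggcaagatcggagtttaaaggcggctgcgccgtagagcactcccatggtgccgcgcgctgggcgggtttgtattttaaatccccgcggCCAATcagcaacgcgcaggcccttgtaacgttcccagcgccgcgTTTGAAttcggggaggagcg
Mki67: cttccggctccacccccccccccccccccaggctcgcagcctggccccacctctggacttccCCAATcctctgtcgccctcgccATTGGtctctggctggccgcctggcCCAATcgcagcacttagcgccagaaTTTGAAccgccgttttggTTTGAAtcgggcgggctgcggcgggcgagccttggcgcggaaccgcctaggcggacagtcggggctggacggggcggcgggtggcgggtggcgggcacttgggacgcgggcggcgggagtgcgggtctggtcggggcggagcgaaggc
Top2a: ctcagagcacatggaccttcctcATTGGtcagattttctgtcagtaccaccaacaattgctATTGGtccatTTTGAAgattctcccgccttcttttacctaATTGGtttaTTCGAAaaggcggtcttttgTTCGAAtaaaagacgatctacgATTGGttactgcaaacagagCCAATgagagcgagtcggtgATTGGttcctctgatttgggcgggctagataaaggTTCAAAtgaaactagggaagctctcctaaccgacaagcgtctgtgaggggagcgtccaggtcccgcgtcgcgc

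In the Plk1 promoter, a CCAAT box lay at -14 to -10 and a CHR at 30 to 35, counted from the start base as 0. Cdk1 held CHR motifs at -71 to -66 and at -15 to -10, and Mki67 at -116 to -111 and at -98 to -93. Top2a held 4 CHR motifs, the nearest to its start at -23 to -18. Of the 38 genes, 29 (76.3%) held a CHR and 29 (76.3%) a CCAAT box, and 25 (65.8%) held both. Of the 9320 tested genes with a promoter of the same length, 13.5% held a CHR, 39.6% a CCAAT box and 5.86% both. Among 52 further G2/M and mitosis genes the shares were 63.5%, 65.4% and 46.2%, and among 38 G1/S and DNA replication genes 21.1%, 57.9% and 13.2%. Of the 29 genes with a CHR, 13, 12 and 12 rose with siCYP1B1 in vehicle, E2 and 16aOHE. Of the 9 without one, 0, 2 and 1 rose. The median log2 differences were 0.113, 0.125 and 0.0952 with a CHR and 0.0977, 0.0694 and 0.0072 without. With E2 against vehicle, 13 genes with a CHR fell with siCYP1B1 and 16 with scrambled siRNA, and 3 and 4 of those without. The difference between these shares was not tested. A match of letters is a description and not evidence of binding.

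**Figure D4:**
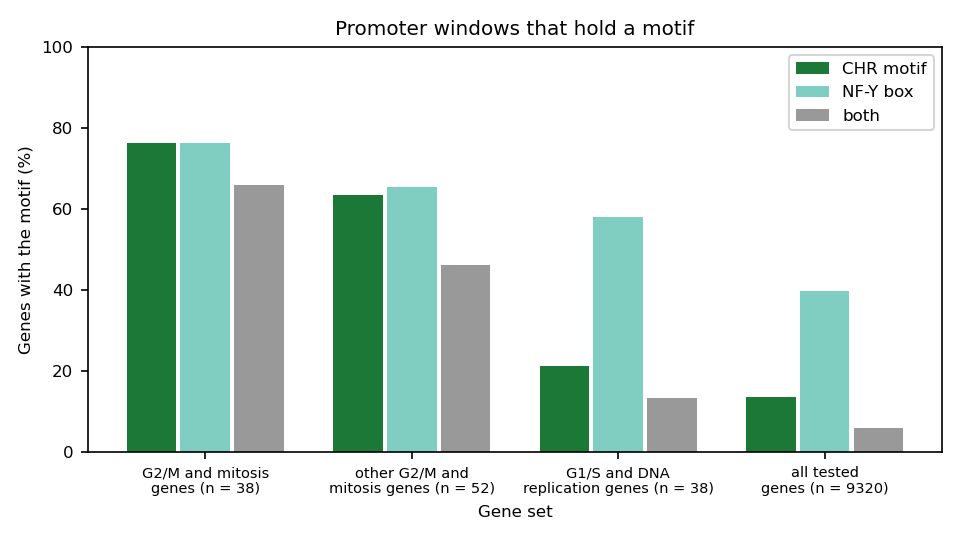
Percent of promoters (vertical axis) with a CHR motif (dark green), a CCAAT box bound by NF-Y (light green) or both (grey) in 4 gene sets (horizontal axis, with the number of promoters). The CHR was found in 76.3% of the G2/M and mitosis genes and 13.5% of all tested genes.

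E2 lowered mitotic genes, among them genes of every role with scrambled siRNA and of every role but the chromosome genes with siCYP1B1. Against vehicle, with siCYP1B1, 20 of 46 fell and 1 rose, where 10.8% of all tested genes fell and 16.7% rose. With scrambled siRNA, 23 fell and 0 rose (1 higher at an unadjusted p under 0.05, Bub1), where 11.4% of all tested genes fell and 18.6% rose. The median log2 difference of the 46 was -0.10 with siCYP1B1 and -0.11 with scrambled siRNA, beside 0.04 and 0.03 over all tested genes. 37 of the 46 were negative for both siRNAs and 4 positive for both (Bub1, Ccnb2, Nek2 and Smc4). These 2 comparisons share no library, and 14 genes fell in both: Aurka, Bub3, Cdc20, Cdk1, Ect2, Kif11, Kif23, Nuf2, Nusap1, Plk1, Prc1, Racgap1, Tpx2 and Ube2c. A further 15 fell with 1 siRNA, and 17 with neither. Calls and signs shared by both siRNAs were not counted over all tested genes, so this sharing is not shown to be particular to the 46.

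Among the cyclins and regulators, E2 lowered Ccna2, Ccnb1, Ccnf, Cdk1 and Foxm1 with siCYP1B1 and Cdk1 with scrambled siRNA. Cdk1 differed by -0.12 (SE 0.0434, adjusted p = 0.0428) with siCYP1B1 and -0.20 (SE 0.0434, adjusted p = 0.0013) with scrambled siRNA, and in each the E2 libraries listed above lay below the vehicle ones. Ccnb1 differed by -0.21 (SE 0.0469, adjusted p = 0.00228) with siCYP1B1 and was not called with scrambled siRNA, at -0.10 (95% interval -0.19 to 0.00, adjusted p = 0.129). Foxm1 differed by -0.16 (SE 0.0504, adjusted p = 0.02) with siCYP1B1 and was not called with scrambled siRNA, at -0.04 (95% interval -0.15 to 0.06, adjusted p = 0.553). Foxm1 lost its siCYP1B1 call without siCYP1B1 E2 library 2 or 3 or siCYP1B1 vehicle library 1, with an adjusted p of up to 0.101. Ccnf lost its siCYP1B1 call without siCYP1B1 E2 library 2 or siCYP1B1 vehicle library 1 or 2, with an adjusted p of up to 0.132. Cdk1 lost its siCYP1B1 call without siCYP1B1 E2 library 2 or 3, siCYP1B1 vehicle library 2 or 3 or scrambled vehicle library 2 or with no filter, quantile normalization or an untrended fit, with an adjusted p of up to 0.137. Ccnb2, Cdc25b, Cdc25c, Cks2 and Nek2 were called with neither siRNA.

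Of the 5 kinases and passenger genes, Plk1 and Aurka fell with both siRNAs. Plk1 differed by -0.26 (SE 0.0464, adjusted p = 0.000254) with siCYP1B1 and -0.28 (SE 0.0464, adjusted p = 0.000106) with scrambled siRNA, a level 16.7% and 17.8% lower in CPM. Aurka differed by -0.24 (SE 0.0387, adjusted p = 0.000108) and -0.24 (SE 0.0387, adjusted p = 8.54e-05) in the same order. For both genes every E2 library lay below every vehicle library of the same siRNA. Aurkb and Incenp fell with scrambled siRNA, at -0.13 (SE 0.0471, adjusted p = 0.0419) and -0.17 (SE 0.0546, adjusted p = 0.0257), and were not called with siCYP1B1. Aurkb lost its scrambled call without siCYP1B1 E2 library 3, any scrambled E2 library or scrambled vehicle library 1 or 3 or with an untrended fit or the compared groups alone, with an adjusted p of up to 0.155. Incenp lost its scrambled call without scrambled E2 library 3 or scrambled vehicle library 1 or 2 or with an untrended fit, with an adjusted p of up to 0.145. Birc5 was called with neither, at -0.06 (95% interval -0.16 to 0.04, adjusted p = 0.379) with siCYP1B1 and -0.13 (95% interval -0.23 to -0.03, adjusted p = 0.0518) with scrambled siRNA.

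Of the checkpoint and anaphase genes, Bub3, Cdc20 and Ube2c fell with both siRNAs and Pttg1, the separase inhibitor securin, with scrambled siRNA. Cdc20 differed by -0.18 (SE 0.0372, adjusted p = 0.0011) with siCYP1B1 and -0.18 (SE 0.0372, adjusted p = 0.00122) with scrambled siRNA, and Ube2c by -0.17 (SE 0.0343, adjusted p = 0.00083) and -0.18 (SE 0.0343, adjusted p = 0.000502). Bub1 was the 1 gene higher with E2, at 0.11 (SE 0.0370, adjusted p = 0.0332) with siCYP1B1, and was not called with scrambled siRNA, at 0.09 (95% interval 0.01 to 0.17, adjusted p = 0.0699). Bub1 lost its siCYP1B1 call without any siCYP1B1 E2 library or any siCYP1B1 vehicle library or with median-of-ratios scaling or quantile normalization, with an adjusted p of up to 0.165. Bub1b, Mad2l1 and Ttk were called with neither siRNA. Among kinetochore genes Nuf2 fell with both siRNAs, at -0.14 (SE 0.0422, adjusted p = 0.0187) with siCYP1B1 and -0.19 (SE 0.0422, adjusted p = 0.0018) with scrambled siRNA, Cenpa with siCYP1B1 and Cenpe with scrambled siRNA. Nuf2 lost its siCYP1B1 call without siCYP1B1 E2 library 2 or siCYP1B1 vehicle library 2 or 3, with an adjusted p of up to 0.0665.

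Genes of the spindle and of cytokinesis fell beside them. Nusap1 differed by -0.30 (SE 0.0396, adjusted p = 9.05e-06) with siCYP1B1 and -0.20 (SE 0.0396, adjusted p = 0.000562) with scrambled siRNA, Kif11 by -0.20 (SE 0.0354, adjusted p = 0.000247) and -0.21 (SE 0.0354, adjusted p = 0.000114), and Prc1 by -0.23 (SE 0.0315, adjusted p = 1.19e-05) and -0.25 (SE 0.0315, adjusted p = 5.64e-06). In the values given above, the E2 libraries of these 3 genes all lay below the vehicle libraries of the same siRNA. Tpx2, Ect2, Kif23 and Racgap1 fell with both siRNAs, at log2 differences of -0.20 to -0.10. Hmmr and Kif4 fell with scrambled siRNA and Kif20a with siCYP1B1, and Kif20b, Kif2c, Ckap2 and Anln with neither. Of the chromosome genes, Mki67, Smc2 and Top2a fell with scrambled siRNA and 0 of 4 with siCYP1B1, where Mki67 was -0.14 (95% interval -0.26 to -0.02, adjusted p = 0.0854) and Top2a -0.04 (95% interval -0.11 to 0.02, adjusted p = 0.326). With scrambled siRNA Mki67 differed by -0.18 (SE 0.0577, adjusted p = 0.0236), its E2 and vehicle libraries overlapping, and Top2a by -0.09 (SE 0.0311, adjusted p = 0.0357). Mki67 lost its scrambled call without scrambled E2 library 3 or scrambled vehicle library 2 or 3 or with an untrended fit, with an adjusted p of up to 0.123. Top2a lost its scrambled call without scrambled E2 library 1 or 3 or scrambled vehicle library 2 or 3 or with quantile normalization, an untrended fit or the compared groups alone, with an adjusted p of up to 0.188.

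Marker genes fell with E2 too: 4 of 6 endothelial and 6 of 7 mesothelial and epithelial genes with each siRNA, 4 of 6 fibroblast and pericyte genes with each siRNA while 1 rose with scrambled siRNA, and 1 of 4 smooth muscle genes with each. Summed mesothelial and epithelial markers ran from 2411 to 2482 CPM in E2, against 2948 to 3103 CPM in vehicle with siCYP1B1, and from 2937 to 3117 CPM against 3819 to 3894 CPM with scrambled siRNA. Summed fibroblast and pericyte markers ran from 3456 to 3576 CPM in E2, against 5233 to 5531 CPM in vehicle with siCYP1B1, and from 4272 to 4785 CPM against 6563 to 6922 CPM with scrambled siRNA. The part of these markers in the fall of the mitotic genes was not tested. The scrambled count of 23 was 15 without scrambled vehicle library 2, and 14 in a fit to the compared groups alone or without the trend of spread with level. Of those 23 genes, 12 were called in every setting and 11 were lost without at least 1 library. Of the 21 genes called with siCYP1B1 in either direction, 13 were called in every setting and 8 were lost without at least 1 library. Not all of these losses are named above.

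16aOHE at the same dose and time moved few of these genes past the threshold. Against vehicle, with siCYP1B1, 3 of 46 fell (Nusap1, Ccnf and Prc1) and 0 rose, where 2.86% of all tested genes fell and 2.53% rose. With scrambled siRNA, 2 fell (Kif11 and Ube2c) and 0 rose, where 2.08% of all tested genes fell and 1.76% rose. Counts this small, beside those shares, are not a result about these genes. At an unadjusted p under 0.05, 2 were higher with siCYP1B1 (Anln and Cenpf) and 1 with scrambled siRNA (Anln), while 15 and 9 were lower. All tested genes were not counted at that threshold, so these counts too are not a result about the 46. The median log2 difference was -0.06 with siCYP1B1 and -0.04 with scrambled siRNA, beside -0.01 and 0.00 over all tested genes, and 35 of the 46 were negative for both siRNAs. No gene was called with both. Signs shared by both siRNAs were not counted over all tested genes.

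With siCYP1B1, Nusap1 differed by -0.19 (SE 0.0396, adjusted p = 0.00643), Ccnf by -0.15 (SE 0.0427, adjusted p = 0.0474) and Prc1 by -0.11 (SE 0.0315, adjusted p = 0.0395). With scrambled siRNA, Kif11 differed by -0.13 (SE 0.0354, adjusted p = 0.0352) and Ube2c by -0.12 (SE 0.0343, adjusted p = 0.0466). In each of these 5 the 16aOHE libraries all lay below the vehicle ones. Ccnf lost its siCYP1B1 call without siCYP1B1 16aOHE library 2 or 3, siCYP1B1 E2 library 3, any siCYP1B1 vehicle library, scrambled 16aOHE library 2, scrambled E2 library 3 or any scrambled vehicle library or with no filter, median-of-ratios scaling, an untrended fit or the compared groups alone, with an adjusted p of up to 0.225. Prc1 lost its siCYP1B1 call without siCYP1B1 16aOHE library 1 or 2, siCYP1B1 E2 library 2 or any siCYP1B1 vehicle library or with median-of-ratios scaling, an untrended fit or the compared groups alone, with an adjusted p of up to 0.203. Kif11 lost its scrambled call without scrambled 16aOHE library 2 or 3 or any scrambled vehicle library or with an untrended fit or the compared groups alone, with an adjusted p of up to 0.183. Ube2c lost its scrambled call without siCYP1B1 16aOHE library 2 or 3, siCYP1B1 E2 library 2 or 3, any siCYP1B1 vehicle library, any scrambled 16aOHE library, scrambled E2 library 3 or any scrambled vehicle library or with quantile normalization, an untrended fit or the compared groups alone, with an adjusted p of up to 0.242. The intervals of the genes that were not called reached from -0.65 (Cks2) to 0.40 (Cenpf) with siCYP1B1 and from -0.35 (Cks2) to 0.30 (Cenpf) with scrambled siRNA, with median widths of 0.176 and 0.177. Cks2 and Cenpf are given because they had the widest intervals, and were chosen after their values were seen. With siCYP1B1, Cks2 had 9.60, 7.64 and 8.87 CPM in 16aOHE, 9.83, 8.96 and 10.8 CPM in E2 and 12.3, 11.3 and 11.3 CPM in vehicle. With scrambled siRNA, Cks2 had 9.30, 9.46 and 9.15 CPM in 16aOHE, 10.6, 6.64 and 9.59 CPM in E2 and 11.0, 10.7 and 8.32 CPM in vehicle. Its libraries spread widely around a low level, and against vehicle it was at -0.38 (95% interval -0.65 to -0.12, adjusted p = 0.083) with siCYP1B1 and -0.08 (95% interval -0.35 to 0.18, adjusted p = 0.83) with scrambled siRNA. With siCYP1B1, Cenpf had 111, 117 and 104 CPM in 16aOHE, 88.4, 99.5 and 99.7 CPM in E2 and 93.2, 92.8 and 94.2 CPM in vehicle. With scrambled siRNA, Cenpf had 101, 101 and 94.5 CPM in 16aOHE, 85.0, 92.6 and 84.7 CPM in E2 and 74.8, 99.3 and 95.2 CPM in vehicle. Cenpf was at 0.24 (95% interval 0.09 to 0.40, adjusted p = 0.0573) with siCYP1B1 and 0.15 (95% interval -0.01 to 0.30, adjusted p = 0.365) with scrambled siRNA.

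Single libraries moved these counts. The siCYP1B1 count of 3 was 5 without siCYP1B1 16aOHE library 1 and 1 without siCYP1B1 16aOHE library 2 or any siCYP1B1 vehicle library. The scrambled count of 2 was 0 without scrambled 16aOHE library 2 or 3 or any scrambled vehicle library, and 1 without siCYP1B1 16aOHE library 2 or 3, siCYP1B1 E2 library 2 or 3, any siCYP1B1 vehicle library or scrambled E2 library 3. With siCYP1B1, 1 gene of the 46 was called higher without siCYP1B1 16aOHE library 3 or scrambled vehicle library 1 or 2. Among marker genes, 4 of 7 mesothelial and epithelial, 3 of 6 fibroblast and pericyte and 1 of 4 smooth muscle genes fell with 16aOHE for each siRNA, as did 2 of 6 endothelial genes with siCYP1B1 and 1 of 6 with scrambled siRNA. Their part in these counts was not tested.

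The 2 estrogens were compared directly, as 1 pair at 1 uM and 24 h, for each siRNA. With siCYP1B1, 9 of the 46 were higher with 16aOHE than with E2 and 1 lower, where 6.59% of all tested genes were higher and 11.8% lower. With scrambled siRNA, 8 were higher and 1 lower, where 6.78% of all tested genes were higher and 11.6% lower. The median log2 difference was 0.06 for each siRNA, beside -0.04 with siCYP1B1 and -0.03 with scrambled siRNA over all tested genes. 6 genes were higher with 16aOHE for both siRNAs: Anln, Aurka, Bub3, Mki67, Plk1 and Prc1. With siCYP1B1 Cdc20, Cenpa and Ect2 were also higher, and with scrambled siRNA Nusap1 and Tpx2. Calls shared by both siRNAs were not counted over all tested genes. Of the marker genes, 5 of 7 mesothelial and epithelial, 4 of 6 fibroblast and pericyte, 2 of 6 endothelial and 1 of 4 smooth muscle genes were higher with 16aOHE than with E2 for each siRNA, and their part in this was not tested.

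Plk1 was higher with 16aOHE than with E2 by 0.18 (SE 0.0464, adjusted p = 0.0108) with siCYP1B1 and 0.22 (SE 0.0464, adjusted p = 0.00224) with scrambled siRNA. Mki67 was higher by 0.22 (SE 0.0577, adjusted p = 0.0116) with siCYP1B1 and 0.20 (SE 0.0577, adjusted p = 0.0179) with scrambled siRNA, and Aurka by 0.17 (SE 0.0387, adjusted p = 0.00378) and 0.19 (SE 0.0387, adjusted p = 0.00183). For these 3 genes every 16aOHE library lay above every E2 library of the same siRNA. Plk1 lost its siCYP1B1 call without siCYP1B1 16aOHE library 1 or siCYP1B1 E2 library 2, with an adjusted p of up to 0.0556. Mki67 lost its siCYP1B1 call without siCYP1B1 16aOHE library 2, with an adjusted p of up to 0.08. Mki67 lost its scrambled call without scrambled 16aOHE library 1 or scrambled E2 library 3 or with an untrended fit, with an adjusted p of up to 0.105. Anln differed by 0.13 (SE 0.0278, adjusted p = 0.00204) with siCYP1B1 and 0.11 (SE 0.0278, adjusted p = 0.00875) with scrambled siRNA, Bub3 by 0.11 (SE 0.0367, adjusted p = 0.0345) and 0.12 (SE 0.0367, adjusted p = 0.0253), and Prc1 by 0.12 (SE 0.0315, adjusted p = 0.01) and 0.15 (SE 0.0315, adjusted p = 0.00214). Bub3 lost its siCYP1B1 call without siCYP1B1 16aOHE library 2 or 3 or siCYP1B1 E2 library 1 or 2 or with an untrended fit or the compared groups alone, with an adjusted p of up to 0.112. Bub3 lost its scrambled call without scrambled 16aOHE library 3 or scrambled E2 library 1 or 2 or with the compared groups alone, with an adjusted p of up to 0.146. Prc1 lost its siCYP1B1 call without siCYP1B1 16aOHE library 3 or with the compared groups alone, with an adjusted p of up to 0.0561. The calls for Anln were lost with quantile normalization for both siRNAs, at adjusted p of 0.112 with siCYP1B1 and 0.0568 with scrambled siRNA.

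The genes lower with 16aOHE than with E2 were Bub1 with siCYP1B1, at -0.16 (SE 0.0370, adjusted p = 0.00538), and Nek2 with scrambled siRNA, at -0.15 (SE 0.0494, adjusted p = 0.034). Nek2, on chromosome 1, 191821473 to 191833049, encodes a kinase that separates the centrosomes. With siCYP1B1, Nek2 had 77.1, 73.5 and 78.0 CPM in 16aOHE, 84.7, 77.3 and 88.3 CPM in E2 and 82.3, 82.7 and 78.5 CPM in vehicle. With scrambled siRNA, Nek2 had 75.6, 70.9 and 69.7 CPM in 16aOHE, 82.8, 76.0 and 82.2 CPM in E2 and 74.6, 76.7 and 72.9 CPM in vehicle. With scrambled siRNA, every 16aOHE library of Nek2 lay below every E2 library. Nek2 lost its scrambled call without scrambled 16aOHE library 2 or 3 or scrambled E2 library 1 or 3 or with median-of-ratios scaling, quantile normalization, an untrended fit or the compared groups alone, with an adjusted p of up to 0.129. For Nek2, the siCYP1B1 libraries all lay above the scrambled ones in vehicle, and the siRNA groups overlapped in E2 and 16aOHE. Nek2 was not called for siCYP1B1 in any single arm, at 0.12, 0.05 and 0.08 in vehicle, E2 and 16aOHE. The intervals of the genes that were not called between the estrogens reached from -0.43 (Cks2) to 0.36 (Cenpf) with siCYP1B1 and from -0.19 to 0.34 (both Cks2) with scrambled siRNA. The siCYP1B1 count of 9 higher was 5 without siCYP1B1 16aOHE library 2 or siCYP1B1 E2 library 2, and the count of 1 lower was 2 without siCYP1B1 16aOHE library 1 or siCYP1B1 E2 library 2. The scrambled count of 1 lower was 0 without scrambled 16aOHE library 2 or 3 or scrambled E2 library 1 or 3.

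Whether an estrogen acted differently by siRNA was tested as the difference of its effect between siCYP1B1 and scrambled cells. For E2, 0 of the 46 were called by limma in either direction, where 0% of all tested genes were, and 0 passed an unadjusted p under 0.05. For 16aOHE, 0 were called, where 0% of all tested genes were, and 1, the spindle protein gene Ckap2, passed an unadjusted p under 0.05, at -0.11 (95% interval -0.22 to -0.00021, adjusted p = 0.966). The intervals of these differences had a median width of 0.248. They reached from -0.43 to 0.32 for E2 (both Cks2) and from -0.67 (Cks2) to 0.32 (Cenpf) for 16aOHE. The genes called with 1 siRNA or in 1 arm alone are thus not shown to differ between them, and the siRNA effect in 16aOHE was not tested against that in E2.

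Of 64 other G2/M and mitosis genes, all tested, 10 (15.6%) rose with siCYP1B1 in vehicle and 0 fell, 17 (26.6%) and 0 in E2, and 8 (12.5%) and 1 in 16aOHE, where 11.5%, 11.4% and 10.4% of all tested genes rose. The shares in vehicle and in 16aOHE are near those of all tested genes and are not a result about these 64. At an unadjusted p under 0.05, 0 were lower in vehicle and in E2. The called genes with the largest changes were Depdc1b (0.34 on the log2 scale) and Cenpm (0.23) in vehicle, Kif15 (0.29) and Ncapd2 (0.23) in E2, and Spc24 (0.24) and Espl1 (0.23) in 16aOHE, where Cep55 fell (-0.13). With E2 against vehicle, 12 of the 64 (18.8%) fell and 1 rose with siCYP1B1, where 10.8% of all tested genes fell, led by Depdc1a (-0.45) and Haspin (-0.23), with Cenph higher (0.24). With scrambled siRNA 14 (21.9%) fell and 0 rose (0 higher at an unadjusted p under 0.05), where 11.4% of all tested genes fell, led by Depdc1a (-0.40). With 16aOHE against vehicle 4 (6.25%) fell with siCYP1B1, led by Cenpm (-0.27) and Depdc1a (-0.26), where 2.86% of all tested genes fell. With scrambled siRNA 0 fell (6 lower at an unadjusted p under 0.05), where 2.08% of all tested genes fell. Between the estrogens, 1 (1.56%) was higher with 16aOHE and 1 (1.56%) lower with siCYP1B1 (Ncapg2, 0.12, and Cenph, -0.33). Of all tested genes 6.59% were higher and 11.8% lower. With scrambled siRNA 4 (6.25%) were higher and 1 (1.56%) lower, led by Depdc1a (0.26), with Ska2 lower (-0.22). Of all tested genes 6.78% were higher and 11.6% lower. None of the counts between the estrogens is above its share of all tested genes, and they are not a result about the 64.

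G1/S and DNA replication genes, which act before the G2/M genes in the cycle, were counted in the same way. Of 46 tested, 9 (19.6%) rose with siCYP1B1 in vehicle, 15 (32.6%) in E2 and 9 (19.6%) in 16aOHE. In each arm 0 fell, with 2, 1 and 1 lower at an unadjusted p under 0.05. Of all tested genes 11.5%, 11.4% and 10.4% rose and 9.12%, 9.8% and 9.31% fell. Ccne1, encoding cyclin E1, differed by 0.26, 0.40 and 0.25 in vehicle, E2 and 16aOHE. With E2, 12 (26.1%) fell and 3 (6.52%) rose with siCYP1B1, where 10.8% of all tested genes fell and 16.7% rose. With scrambled siRNA 16 (34.8%) fell and 3 (6.52%) rose, where 11.4% of all tested genes fell and 18.6% rose. Tk1, encoding thymidine kinase, differed by -0.36 and -0.34, Rrm1, of ribonucleotide reductase, by -0.24 and -0.29, and the higher genes included E2f1, at 0.20 and 0.20, and Pold1, at 0.14 and 0.17. With 16aOHE 7 (15.2%) fell with siCYP1B1 (Tk1 -0.27, Rpa2 -0.18), where 2.86% of all tested genes fell. With scrambled siRNA 2 (4.35%) fell (Rrm1 -0.18, Ccnd3 -0.14), where 2.08% of all tested genes fell. A count of 2 is not a result about these genes. Between the estrogens, 2 were higher with 16aOHE and 3 lower with siCYP1B1, where 6.59% of all tested genes were higher and 11.8% lower. With scrambled siRNA 6 were higher and 1 lower, where 6.78% of all tested genes were higher and 11.6% lower. The siCYP1B1 counts and the scrambled count of 1 lower are below those shares and are not a result about these genes. The scrambled count of 6 higher was not tested against its share.

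Of 23 tested transcription regulators and CDK inhibitors, 3 rose and 1 fell with siCYP1B1 in vehicle, 4 and 0 in E2, and 5 and 1 in 16aOHE. In the same order, 11.5%, 11.4% and 10.4% of all tested genes rose and 9.12%, 9.8% and 9.31% fell. The count of 3 higher in vehicle is near its share and is not a result about these 23. The counts in E2 and 16aOHE were not tested against those shares. With E2 against vehicle, 4 rose and 6 fell with siCYP1B1, where 16.7% of all tested genes rose and 10.8% fell. With scrambled siRNA 3 rose and 6 fell, where 18.6% of all tested genes rose and 11.4% fell. The counts that rose with E2 are near or below their shares and are not a result about these 23. The counts of 6 that fell were not tested against their shares. Mybl2 encodes B-MYB, which switches on G2/M genes. It differed with siCYP1B1 by 0.24 (SE 0.0653, adjusted p = 0.0118) in vehicle, 0.23 (SE 0.0653, adjusted p = 0.0137) in E2 and 0.24 (SE 0.0653, adjusted p = 0.013) in 16aOHE. Mybl2 fell with E2, at -0.30 (SE 0.0653, adjusted p = 0.00151) with siCYP1B1 and -0.30 (SE 0.0653, adjusted p = 0.00168) with scrambled siRNA. It was higher with 16aOHE than with E2 by 0.21 and 0.20. Between the estrogens, 2 of the 23 were higher with 16aOHE and 3 lower with siCYP1B1, where 6.59% of all tested genes were higher and 11.8% lower. With scrambled siRNA 3 were higher and 3 lower, where 6.78% of all tested genes were higher and 11.6% lower. Rbl2 was among the lower genes, at -0.22 with siCYP1B1 and -0.31 with scrambled siRNA. These counts were not tested against those shares. E2f4, encoding the E2F factor of the DREAM complex, differed with siCYP1B1 by 0.26 (SE 0.0453, adjusted p = 0.000377) in vehicle, 0.22 (SE 0.0453, adjusted p = 0.00178) in E2 and 0.22 (SE 0.0453, adjusted p = 0.00177) in 16aOHE. Lin54, encoding the subunit that binds the CHR, was not called in any comparison. Trp53, encoding p53, fell with E2, at -0.21 (SE 0.0469, adjusted p = 0.00199) with siCYP1B1 and -0.23 (SE 0.0469, adjusted p = 0.000838) with scrambled siRNA. Cdkn2c, encoding the CDK inhibitor p18, fell with E2 at -0.41 and -0.32. Among those that rose with E2 were Rbl1 and Rbl2, encoding the pocket proteins p107 and p130, at 0.26 and 0.19 with siCYP1B1 and 0.21 and 0.24 with scrambled siRNA. Cdkn2b, encoding the CDK inhibitor p15, rose by 0.21 and 0.22. These genes are given singly, since the counts that rose with E2 are not a result about the 23. Cdkn1a, encoding the CDK inhibitor p21 that p53 induces, was called in the averaged siRNA comparison alone, at 0.07 (SE 0.0199, adjusted p = 0.00529).

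The 46 genes did not all follow 1 course over the 18 libraries. The highest library stood above the lowest by a ratio of 1.11 for Smc2 to 1.85 for Cks2, with a median of 1.25 over the 46 genes. The next highest ratios were 1.56 for Cenpf and 1.49 for Mki67. As z-scores of log2(CPM + 1), their mean over each group was 0.37 with siCYP1B1 in 16aOHE, -0.04 in E2 and 1.13 in vehicle, and with scrambled siRNA -0.42 in 16aOHE, -1.09 in E2 and 0.05 in vehicle. The siCYP1B1 E2 group thus stood near the scrambled vehicle group. The median Pearson correlation between pairs of the 46 genes over the 18 libraries was 0.51, and 88.4% of 1035 pairs were above 0. For the same number of pairs of G1/S genes the median was 0.38 and 79.3% were above 0. The genes closest to the mean of the others were Ube2c (r = 0.938), Prc1 (0.935) and Tpx2 (0.934), and the farthest were Mad2l1 (-0.27), Anln (-0.018), Ckap2 (0.16) and Cenpf (0.20). Outside the gene lists used here, the 5 tested genes whose 6 group means tracked the mean of the 46 most closely were Uchl5, Dars, Ppef1, Ltb4r1 and Pmm2, with r of 0.994 to 0.996. Libraries of a group share their treatment and every value in a library shares its total, so these correlations are descriptions.

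Since CPM are shares of a total, the split of calls over all genes moved with the scaling. With siCYP1B1 in vehicle, 55.7% of all calls were higher as deposited, 41.4% after median-of-ratios scaling and 47.0% after quantile normalization. In E2 these were 53.7%, 41.1% and 46.6%, and in 16aOHE 52.7%, 46.9% and 48.3%. With E2 against vehicle they were 60.6%, 45.8% and 50.8% with siCYP1B1 and 62.0%, 46.9% and 51.0% with scrambled siRNA. Between 16aOHE and E2 they were 35.9%, 59.3% and 52.0% with siCYP1B1 and 36.8%, 54.5% and 49.4% with scrambled siRNA. The medians of the 46 genes kept their sign in all 9 pairwise comparisons, and the median over all genes moved by at most 0.041 on the log2 scale. With siCYP1B1, 11, 15 and 10 of the 46 rose in vehicle, E2 and 16aOHE after median-of-ratios scaling, and 14, 20 and 12 after quantile normalization. With E2 against vehicle, 27 fell with siCYP1B1 and 28 with scrambled siRNA after median-of-ratios scaling, and 21 and 24 after quantile normalization. After median-of-ratios scaling 17 were higher with 16aOHE than with E2 with siCYP1B1 and 16 with scrambled siRNA. As deposited, 40, 36 and 35 of the 46 lay above the median of all tested genes for siCYP1B1 in vehicle, E2 and 16aOHE, and 42 and 43 lay below it for E2 with siCYP1B1 and scrambled siRNA.

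**Figure D5:**
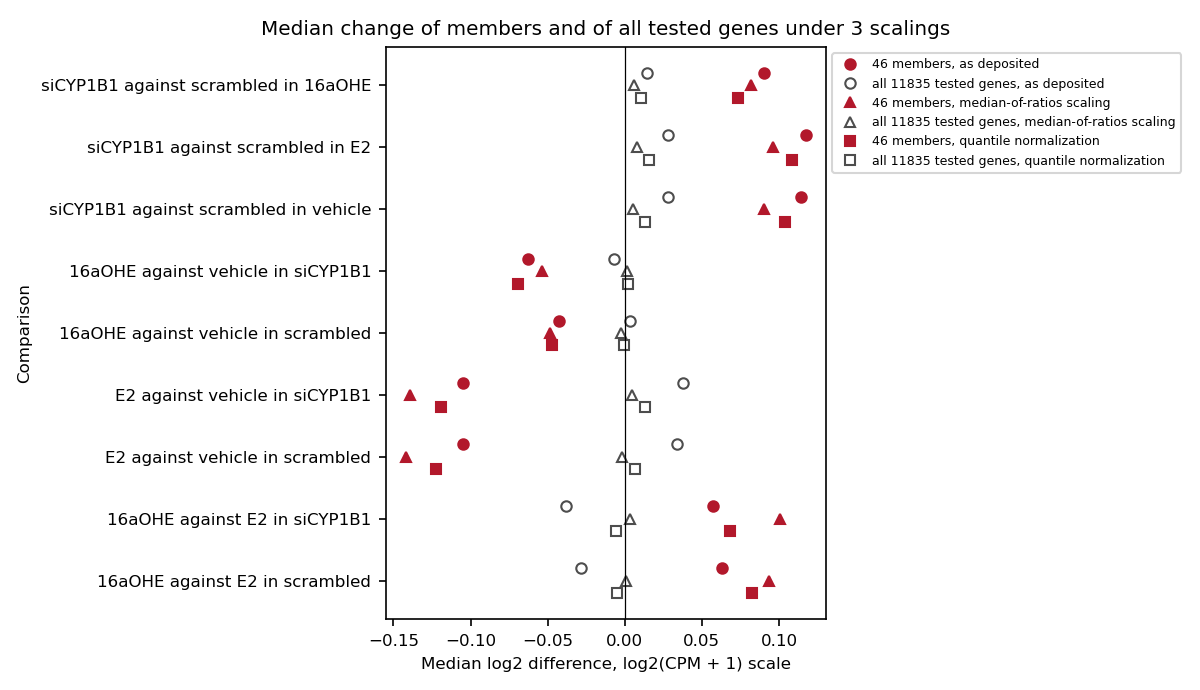
Median log2 difference on the log2(CPM + 1) scale (horizontal axis) of the 46 G2/M and mitosis genes (filled red) and of all 11835 tested genes (open grey) in 9 comparisons (vertical axis), as deposited (circles), after median-of-ratios scaling (triangles) and after quantile normalization (squares). In each comparison the 3 red marks lie on the same side of 0.

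Beside the overlaps of Ube2c and Kif20a with their neighbours, 12 of the 46 genes share exonic bases with another gene, at 15.1% of the exonic length of Kif4 (with Pdzd11), 12.7% of Cdc25c (Gm3550), 12.5% of Ccna2 (Exosc9), 11.1% of Prc1 (Rccd1), 7.09% of Plk1 (Gm44985), 6.60% of Nek2 (Gm38037) and 4.24% of Nusap1 (Oip5). For the other 5 the shared length was 0.103% to 2.84%: Cdc20 (with Elovl1), Foxm1 (Tex52 and Gm44596), Cdc25b (Spef1), Top2a (Gm23451) and Ccnf (Mir5134). The annotation also holds the copies Ccnb1-ps, Ccnb2-ps and Kif4-ps. The sources used here do not say how reads of these genes and copies were divided, so their levels are uncertain to that extent.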

How the data were processed

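RNA sequencing values of 18 mouse libraries were used, in 1 deposited table of 15288 genes. Its values are CPM, scaled by the authors to 1000000 reads in the listed genes per library with 1e-04 added to each value, as the deposited values show. Per the submitters' processing notes, TopHat2 and Partek were used with mm10; the sources used here give no versions, annotation, strand or filters. The smallest steps between low values gave 14.1 to 38.5 reads per CPM in each library (median 23.2), and 94.1% to 95.5% of low values came within 0.1 of a whole number of reads. Whole counts were thus not recovered for every gene, and no count test was run. Gene positions are those of the table on mm10, 1-based, with the listed stop reduced by 1.

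log2(CPM + 1) was tested with the lmFit and eBayes functions of limma 3.58.1 (R 4.3.3), trend included, with 1 coefficient per group over all 18 libraries. The 11835 genes averaging 1 CPM or more were tested and 3453 were left out, and Benjamini-Hochberg adjustment ran over all tested genes within each of 12 contrasts, at a threshold of 0.05. Fold changes on this scale understate those of low genes. Groups came from the siRNA and estrogen labels. Summaries and figures used Python 3.11.15, pandas 2.3.3, numpy 2.4.6 and matplotlib 3.10.9, and the fit was tested on simulated data. Values in every library are given for Ccnb1, Cdk1, Plk1, Aurkb, Mki67, Top2a, Foxm1 and Birc5, and for the 2 called genes with the largest absolute change in each direction of each pairwise contrast. The members and lists were chosen with earlier results of these data known. The alternatives were pseudocounts of 0.1 and 5 CPM, no filter, a filter at 5 CPM, median-of-ratios scaling, quantile normalization, eBayes without trend, the compared groups alone, and each library left out in turn. Libraries of 1 group correlated at 0.9969 to 0.9986, libraries of different groups at 0.9934 to 0.9980, and 0 pairs of columns were identical.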

Additional observations from a re-analysis of the deposited data

How the results depend on the processing

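No paired analysis was possible because the labels carry no replicate numbers. A set of 47 called results was followed through the alternatives. It held those of Ccnb1, Cdk1, Plk1, Aurkb, Mki67, Top2a, Foxm1 and Birc5 in any comparison. It also held the 2 called genes with the largest absolute change in each direction, within their own pairwise comparison only. Of these 47, 25 were called under every alternative, 22 were lost under at least 1 and 0 reversed. The 2 counts of called genes for each comparison moved as follows, and the cause was not tested. After median-of-ratios scaling, 11 genes rose with siCYP1B1 in vehicle against 18 as deposited, 16 and 17 were higher with 16aOHE than with E2 for scrambled siRNA and siCYP1B1 against 8 and 9, 1 fell with 16aOHE and siCYP1B1 against 3, and 0 rose with E2 and siCYP1B1 against 1. Quantile normalization also gave 0 for that last count, and 1 against 2 for genes lower with 16aOHE and scrambled siRNA. Without the trend of spread with level, and in fits to the compared groups alone, genes higher with siCYP1B1 in 16aOHE numbered 8 and 7 against 14, genes lower with E2 and scrambled siRNA 14 and 14 against 23, genes lower with 16aOHE and scrambled siRNA 0 and 0 against 2, and genes lower with 16aOHE and siCYP1B1 1 and 1 against 3. The compared groups alone also gave 1 gene higher with 16aOHE and siCYP1B1, against 0. The gene lower with 16aOHE than with E2 for scrambled siRNA, Nek2, was lost in both of these fits and after both scalings, where the count was 0. The averaged siRNA comparison uses every library, so a fit to the compared groups alone is the same fit. With 1 library left out in turn, genes higher with siCYP1B1 numbered 12 to 21 in vehicle, with 0 to 1 lower, and 7 to 16 in 16aOHE. With E2 against vehicle, 15 to 25 fell with scrambled siRNA and 0 to 1 rose with siCYP1B1. With 16aOHE against vehicle, 0 to 2 fell with scrambled siRNA, and 1 to 5 fell and 0 to 1 rose with siCYP1B1. Between the estrogens, 5 to 11 were higher with 16aOHE and 1 to 2 lower with siCYP1B1, and 0 to 1 lower with scrambled siRNA. The single libraries behind these counts are named beside each comparison. Of all called genes, 9 of 18, 12 of 19 and 7 of 14 were called in every setting for siCYP1B1 in vehicle, E2 and 16aOHE. For 16aOHE against vehicle this held for 1 of 3 with siCYP1B1 and 0 of 2 with scrambled siRNA. Between the estrogens it held for 3 of 10 and 4 of 9 in the same order. With 3 libraries per group, the median 95% interval of a gene that was not called was 0.176 to 0.197 wide in the pairwise comparisons, and the smallest called difference was 0.08 (Tpx2, siCYP1B1 in vehicle).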
